A study of Mus musculus with 40 samples.

Results

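The cytosolic ribosomal protein genes encode the protein parts of the ribosome that translates nuclear-encoded mRNAs. They were taken as the protein-coding rows of the count table whose mouse symbol is Rpl or Rps followed by a number (with an optional a, x, y or l), together with Rpsa, Rplp0, Rplp1 and Rplp2, and without pseudogenes and S6 kinases. This gave 83 of 52636 rows, 32 for the small and 51 for the large subunit. A further 6 rows with a matching name are not annotated as protein coding and were left out. Of the 83, 70 passed the filter on low counts (28 small, 42 large subunit) among 17079 genes tested.

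Brown adipose tissue, the heat-producing fat, was collected from male C57BL/6 mice, 5 per group in 8 groups, and sequenced in bulk as 50-base single-end reads. All mice received 1 intraperitoneal antibody dose at 10 weeks of age or older (the upper age is given as 12 weeks in one source and 14 weeks in another): control mice an anti-ragweed isotype antibody at 40 mg/kg, and Jag antibody mice blocking antibodies against the Notch ligands Jag1 and Jag2 at 20 mg/kg each. Tissue was taken at 15 h, 5 d or 7 d, and 2 further groups at 7 d, 1 per antibody, also received thyroid hormone daily from day 2 (T4 at 1 ug/g and T3 at 0.05 ug/g body weight). The mice are separate animals, so p-values measure the spread between mice.

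A ribosome holds 1 copy of nearly every ribosomal protein, and cells make these proteins in step with ribosomal RNA. Many ribosomal protein mRNAs start with a C followed by a run of pyrimidines, the 5′ terminal oligopyrimidine (TOP) tract, through which mTOR and LARP1 control their translation. The genes are short, and most have processed pseudogenes that copy their coding sequence, which matters for 50-base reads.

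The first set of sequences shows how far a 50-base read can be assigned to 1 gene. Each is the middle of a coding sequence (GENCODE M21, GRCm38) for members among those with the highest levels (Rpl8 and Rps15), the members with the 3 lowest levels, and Rps6, the S6 kinase substrate. Capitals mark the bases that differ from the closest ungapped stretch in a transcript of another gene, and a sequence without capitals is either shared exactly or, for Rpl8, has no stretch within 10 mismatches elsewhere.
Rpl8 (chr15:76904078-76906314): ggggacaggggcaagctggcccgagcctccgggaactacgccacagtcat
Rps15 (chr10:80292453-80294114): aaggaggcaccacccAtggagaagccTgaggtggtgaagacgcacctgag
Rpl36 (chr17:56613416-56614243): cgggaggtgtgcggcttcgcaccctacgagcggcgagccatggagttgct
Rpl23a (chr11:78180932-78183584): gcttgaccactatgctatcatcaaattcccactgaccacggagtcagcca
Rps6 (chr4:86854660-86857412): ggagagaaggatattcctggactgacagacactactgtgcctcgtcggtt
Rpl10l (chr12:66283379-66284401): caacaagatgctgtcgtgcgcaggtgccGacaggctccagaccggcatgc
The Rps15 stretch differs at 2 bases from its closest match. The Rpl36 stretch is carried letter for letter by 3 pseudogenes. The Rpl23a stretch is found in 2 pseudogenes and in Tlcd1, whose span overlaps Rpl23a on the other strand, and the Rps6 stretch in 1 pseudogene. The Rpl10l stretch differs at 1 base from its closest match.

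The second set shows transcript starts, from 10 bases before to 20 bases from the start, taken from RefSeq promoters (GRCm38.p6). Capitals mark a C followed by at least 4 bases that are each C or T, beginning at the annotated start.
Rpl15 (chr14:18270967-18270996, minus strand): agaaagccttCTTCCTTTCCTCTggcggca
Rps6 (chr4:86857348-86857377, minus strand): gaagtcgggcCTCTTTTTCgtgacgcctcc
Rplp2 (chr7:141447641-141447670, plus strand): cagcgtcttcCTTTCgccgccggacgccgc
Rps21 (chr2:180257369-180257398, plus strand): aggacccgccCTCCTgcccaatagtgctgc
Rpl3l (chr17:24727816-24727845, plus strand): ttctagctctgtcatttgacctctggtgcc
A promoter was found for 63 of the 83 members. At the annotated start itself, 13 of the 63 (20.6%) had such a run on the transcribed strand, against 2.97% of 26962 other genes, and 61.9% against 34.3% had one beginning within 10 bases of it. Rpl3l, the muscle-type paralog of Rpl3, has no run at its start. A match only describes these letters, and a missing match may reflect the annotated start.

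Ribosomal protein genes made up 0.110% to 0.885% of the counts of a library, and their 291 pseudogene rows 0.0113% to 0.0666%. Counts scaled to a common library total (CPM) and divided by spliced length (CPM per kb) were 450 for Rpl8 and 274 for Rps15, among the highest, and went down to 0.0641 for Rpl36, 0.0149 for Rpl23a and 0.00105 for Rpl10l. Proteins that sit in the ribosome in equal number had mRNA levels in this table that differed by orders of magnitude. The level went with the uniqueness of the sequence, measured as the share of 50-base windows of the coding sequence found in no other annotated transcript. The 29 members with no unique coding window had a median of 12.5 counts per library and held 3.48% of all ribosomal protein counts. The 39 members with a share above 0% and under 50% had a median of 77.3 counts and held 22.4%. The 15 members at 50% or more had a median of 1438 and held 74.1%. Across the 83 genes, Spearman's rho between CPM per kb and the unique share was 0.69, against -0.0085 with spliced length and 0.089 with GC content. These genes share the same 40 libraries, and how the counting treated reads with several matches is not given in the sources used here, so its part in these levels was not tested.

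**Figure D1:**
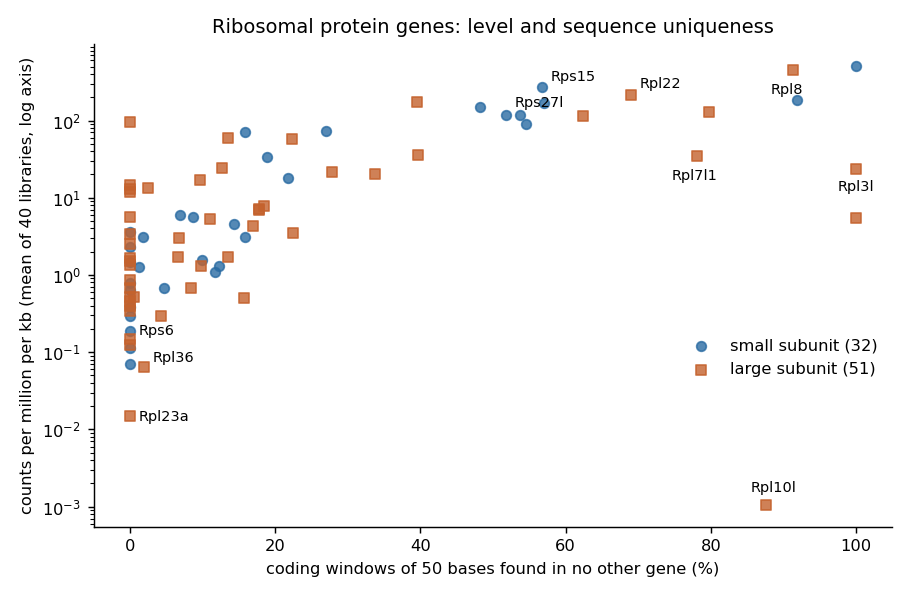
Mean CPM per kb over 40 libraries (log axis) of each of the 83 ribosomal protein genes against the percentage of its 50-base coding windows found in no other gene; circles are small and squares large subunit genes. Rpl8 lies at the top right, Rpl23a and Rpl36 at the bottom left, and Rpl10l alone is unique and almost without counts.

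Some members had hardly any counts. Rps6 had 0 to 9 counts per library, with 5 libraries at 0, and did not pass the filter. Among the others that did not pass were Rps12, Rps29, Rpl5, Rpl10a, Rpl10l, Rpl22l1, Rpl23a, Rpl24, Rpl36, Rpl36a and Rpl38. Rpl10l, the retrogene known from the testis, differs from the others, since 87.5% of its coding windows are unique and it had 1 count in 1 of 40 libraries (0 in the other 39). The results below compare each gene with itself across groups.

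**Figure D2:**
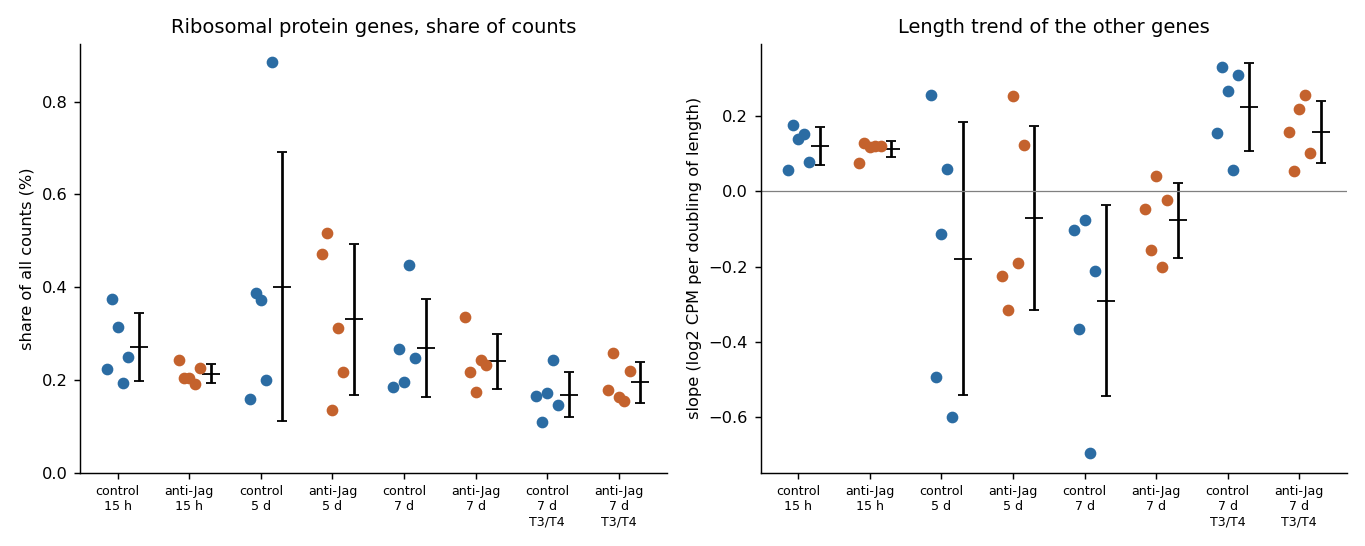
Left, the percentage of each library's counts on ribosomal protein genes; right, the slope of log2 CPM (relative to each gene's mean) on log2 length over other protein-coding genes; 5 mice per group as points, mean and SD as bars. The highest share is that of control mouse 5 at 5 d (0.885%), the most negative slopes are those of control mice at 5 d and 7 d, and all hormone-treated mice have positive slopes.

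Before the comparisons, 2 libraries with a high ribosomal protein share for their group are described. Dixon's test for 1 distant value, given below, singled out neither. Control mouse 5 at 5 d had a ribosomal protein share of 0.885%, against 0.158% to 0.389% in the other 4 mice of its group. Control mouse 4 at 7 d had 0.447%, against 0.184% to 0.268%. Jag antibody mice 6 and 7 at 5 d had higher shares than this mouse, 0.472% and 0.516%. Short and long genes also shifted against each other between libraries. The slope of log2 CPM on log2 length over other protein-coding genes ran from -0.70 to 0.33 per doubling of length. It was -0.60 in control mouse 5 at 5 d, -0.70 in control mouse 4 at 7 d and -0.49 in control mouse 2 at 5 d. The members are short (271 to 3706 bases), so the members' medians are given beside those of other short genes (up to 1000 bases), and for the main results also with libraries adjusted for length and GC trends. All 8 brown adipocyte markers, Ucp1 among them, were counted in every library.

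Thyroid hormone in control mice gave the one broad change. Of 70 tested members, 46 were called lower at 7 d with hormone than without and 0 higher (edgeR's quasi-likelihood test, adjusted p under 0.05 is "called"), where 43.2% of all genes were called, 22.9% lower and 20.3% higher. The median log2 fold change was -1.24 over the 70 members and 0.04 over all tested genes, and 67 members were negative. Both subunits took part, 20 of 28 small and 26 of 42 large subunit genes being called. In bulk tissue, fewer cells that express a gene and less of its mRNA per cell cannot be told apart.

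The other short genes did the same. Of 949 other protein-coding genes of up to 1000 bases, 60.8% were called lower and 4.64% higher, with a median of -1.19, whereas 19.1% of genes over 1000 bases were lower. The 77 tested mitochondrial ribosomal protein genes, which encode the separate ribosome of mitochondria, had 76 called lower and a median of -1.40. With each library's trend with length and GC content, fitted on genes that are not members, taken out, 13 members were called, 9 lower (among them Rps19, Rps20, Rps24, Rpl3, Rpl19, Rpl37, Rpl41 and Rplp2) and 4 higher (Rps13, Rps28, Rpl9 and Rpl10). Among the 9, Rps20 was adjusted at a spliced length of 3706 bases, of which 357 are coding. How far its call depends on that length was not tested. Of the 949 other short genes, 448 were called after the same adjustment, 29.6% lower and 17.6% higher. The members' median was then -0.25, against -0.17 over the short genes. With library totals in place of TMM, 16 members were called, all lower, and the members' median was -0.67 while that of all genes moved to 0.48. Without control mouse 4 at 7 d, 18 members were called. The direction of the members' median thus held under each scaling, and its size did not.

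**Figure D3:**
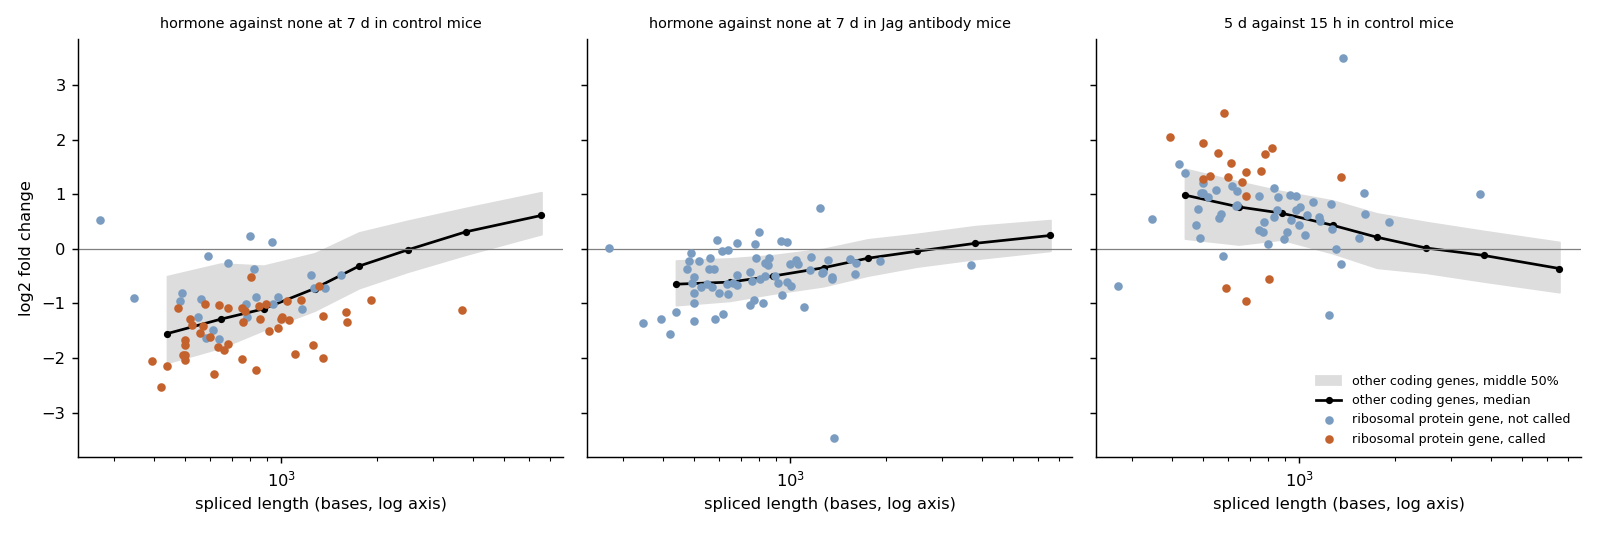
Log2 fold change against spliced length (log axis) for 3 comparisons; points are tested ribosomal protein genes (orange if called), the black line the median and the grey band the middle 50% of other protein-coding genes in 8 length bins. In control mice with hormone, most members lie near the falling left end of the other genes' line, which reaches a median of -1.55 for genes under 500 bases and 0.61 over 5000 bases.

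Among the acidic stalk proteins P0, P1 and P2, which recruit elongation factors, Rplp2 showed the largest change of any member. Its CPM (scaled by TMM) in control mice at 7 d was 5.44, 17.7, 10.9, 46.7 and 14.4, and with hormone 3.68, 1.12, 2.63, 6.44 and 2.57. Mouse 4 of the untreated group was the highest, and the groups overlapped through 1 mouse on each side. The log2 fold change was -2.53 (SE 0.66, adjusted p 0.0027 by edgeR's quasi-likelihood test). Rplp1 fell by 2.04 (adjusted p 0.018) and Rplp0 by 1.24 (adjusted p 0.021), also with overlap. Rplp2 and Rpl37 were still called after the length and GC adjustment, while Rpl27 was not.

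Of the large subunit, Rpl27 had the second largest log2 fold change, -2.30 (SE 0.70, edgeR adjusted p 0.0083), from 15 to 45 counts per library without hormone to 4 to 20 with it. Rpl37 had CPM of 5.07, 11.1, 4.44, 24.4 and 6.89 without hormone and 2.57, 1.31, 2.13, 3.08 and 1.92 with it. No treated mouse reached the lowest untreated one, and the log2 fold change was -2.22 (SE 0.56, adjusted p 0.0020). Rpl3, a protein near the peptidyl transferase centre, fell by 2.01 (adjusted p 0.0013), from 8 to 15 counts per library to 2 to 6. With 4.31% of its coding windows unique, these few counts say little about the Rpl3 mRNA level. Rpl41, which encodes the smallest member, fell by 2.15 (adjusted p 0.0035).

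Rpl8 and Rps15 had high levels per kb. Rpl8 fell by 1.05 (SE 0.35, edgeR adjusted p 0.014), from 280 to 860 CPM without hormone to 161 to 335 with it. Rps15, a small subunit protein needed for export of the precursor particle, fell by 1.67 without overlap (adjusted p 0.0040). Of the 14 tested members with at least 50% unique coding windows, 11 were called lower, and 35 of the 56 with fewer, with medians of -1.17 and -1.24. In 21 members the groups did not overlap, and all 21 were called. The share of other genes without overlap was not counted, so the 21 cannot be set against it.

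Of the paralog pairs described here, Rps27l, Rpl7l1 and Rpl22 passed the test, as did Rpl3 above. Rps4x, the partner of Rps4l, was called lower too. Rps27l, the p53-responsive relative of Rps27, had CPM of 59.4, 137, 49.7, 272 and 69.0 without hormone and 38.4, 26.0, 25.1, 39.1 and 23.7 with it. The 2 groups were apart, with a log2 fold change of -1.95 (SE 0.43, edgeR adjusted p 0.00062). Rpl7l1, an Rpl7 relative linked to ribosome assembly, had 58.5, 63.2, 58.0, 62.0 and 50.5 CPM without hormone and 38.5, 37.4, 32.6, 35.8 and 37.2 with it. Its log2 fold change was smaller, -0.69, but its SE of 0.15 made it one of the firmest calls (adjusted p 0.00053). Rpl22, an RNA-binding protein with a role in lymphocytes, fell by 1.08 without overlap (adjusted p 0.0080). Their partners Rps27 at -0.90 (adjusted p 0.24) and Rpl7 at -1.10 (adjusted p 0.067) did not pass, nor did Rpl39l at -1.25 (adjusted p 0.13), and Rpl22l1 was not tested. Members often used as reference genes in quantitative PCR were measured as well, with Rpl13a at -0.95 (adjusted p 0.025), Rplp0 at -1.24, and Rps18 at -0.91 (adjusted p 0.22).

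Other members did not pass. Rpl4, with 119.5 to 252 CPM in these 10 mice, had a log2 fold change of -0.48 (edgeR adjusted p 0.14). Values above 0 were found for Rps23 (0.12), Rpl10 (0.23) and Rps28 (0.53), none of them called. The 11 tested members with a pyrimidine run at their RefSeq start had a median of -1.13 and the 43 without one -1.09.

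Genes around the ribosome moved both ways with hormone in control mice, where 20.3% of all genes were called higher and 22.9% lower. The lists are short, and their counts were not tested against these shares. Of ribosomal proteins under other names, 2 of 3 tested were called lower, Fau (ribosomal protein S30 fused to a ubiquitin-like protein) at -1.88 and Rpl36al at -1.57. Of 14 other mRNAs with a TOP tract, 3 were called higher and 5 lower, led by Tpt1 (translationally controlled tumour protein) at -1.83 and the RNA-binding protein Hnrnpa1 at 1.16. Of 24 ribosome biogenesis genes, 3 were higher and 4 lower, with Nhp2, a core protein of H/ACA particles, at -1.37 and the RNA polymerase I subunit Polr1c at -1.08. Of 15 genes that control ribosome synthesis, 5 were higher and 4 lower, with Eif4ebp1, the translation repressor under mTOR, at -1.89 and the growth regulator Myc at 1.48.

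Markers of other cells moved in the same comparison, where 20.3% of all genes were called higher and 22.9% lower. All 5 proliferation genes were called higher (median 3.51), with a score (mean log2 CPM) of -1.07 to 0.01 without and 2.66 to 3.52 with hormone. Of 10 myeloid markers, 6 were higher (score 1.15 to 3.03 without and 3.25 to 4.42 with hormone), and none of the 10 was at 0 throughout, Cxcr2 being at 0 in 2 of 40 libraries. Of 5 erythroid markers 4 were lower, of 4 endothelial markers 3 were higher, and 5 of 8 brown adipocyte markers were lower. None of 8 muscle and 8 lymphocyte markers was called. The part of these cells in the ribosomal protein result was not tested.

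In Jag antibody mice the hormone gave 0 called members of 70 by edgeR and 0 by DESeq2, with 7 at an unadjusted p under 0.05, while 9.5% of all genes were called, 4.29% higher and 5.21% lower. The median was -0.46 and 62 members were negative. Of the short genes, 11.7% were called lower, with a median of -0.55. Fitted on these groups alone, 12 members were called, all lower. Rplp2 had 8.14, 14.8, 4.90, 9.73 and 8.34 CPM without hormone and 2.29, 3.06, 3.01, 2.38 and 4.85 with it, which did not overlap. Its log2 fold change of -1.55 did not pass (edgeR adjusted p 0.12).

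The difference between the hormone's effects under the 2 antibodies was tested as an interaction. No member passed in edgeR or DESeq2, with 6 at an unadjusted p under 0.05, where 0.00586% of all genes (1 gene) were called. The members' median interaction was 0.75, against 0.61 over the short genes, and 0.16 with the length and GC adjustment. Rpl37 had 1.96 (SE 0.77, adjusted p 0.37) and Rps27l 1.42 (SE 0.60, adjusted p 0.37). The 46 calls in control mice and 0 in Jag antibody mice are therefore not shown to differ.

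**Figure D4:**
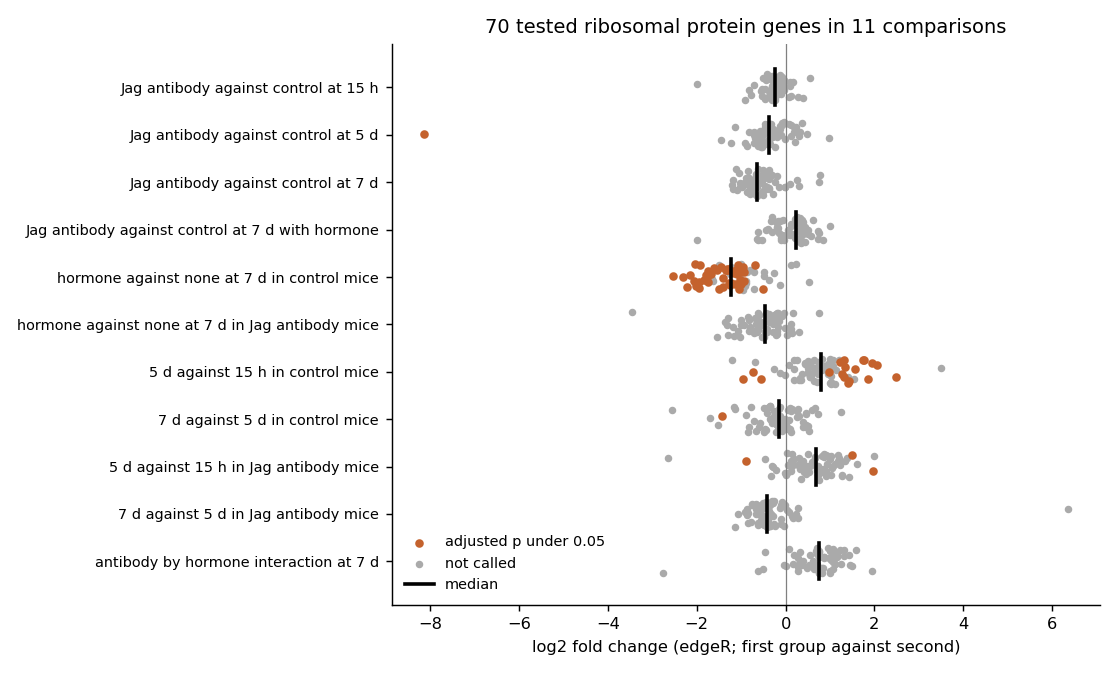
Log2 fold changes of the 70 tested ribosomal protein genes in 11 comparisons (the interaction is a difference of log2 fold changes); orange points are called at an adjusted p under 0.05 and black bars mark medians. The hormone row for control mice holds most of the orange points, and Rpl3l is the point at -8.14 in the 5 d antibody row.

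The antibody itself moved few members. At 15 h, 0 of 70 were called (all genes 1.14%, 0.234% higher and 0.902% lower; 0 by DESeq2; 0 at an unadjusted p under 0.05), with a median of -0.24, against -0.05 over the short genes. At 7 d, 0 were called (all genes 2.5%, 1.21% higher and 1.29% lower; 0 by DESeq2; 10 at an unadjusted p under 0.05), with 65 of 70 negative and a median of -0.64, against -0.53 over the short genes, and -0.13 with the length and GC adjustment. At 7 d with hormone, 0 were called (all genes 1.14%, 0.697% higher and 0.439% lower; 0 by DESeq2; 1 at an unadjusted p under 0.05), and the median was 0.24, against 0.08 over the short genes.

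At 5 d the antibody comparison had 1 member called, lower, of 70, against 8.02% of all genes called, 5.93% lower and 2.09% higher. This was Rpl3l, which replaces Rpl3 in the ribosomes of skeletal and heart muscle. Control mice had 336, 43, 3166, 3631 and 6352 counts and Jag antibody mice 9, 10, 10, 11 and 19. The groups did not overlap, and the log2 fold change was -8.14 (SE 2.41, edgeR adjusted p 0.034). Muscle markers followed the same split: 8 of 8 were negative and 6 called lower, and their mean log2 CPM was 5.10 to 13.7 in the control and -2.69 to 2.20 in the Jag antibody mice. In the Jag antibody and other libraries the markers Ckm, Myh1, Myh4 and Tnnt3 were at 0 in 3, 7, 4 and 1 of 40. With the muscle score as a covariate, the Rpl3l log2 fold change was 0.61 (edgeR adjusted p 0.85). The score enters as a straight line and does not overlap between these groups, so this fit cannot tell antibody and muscle content apart at 5 d. The call was lost without the low-count filter (-8.16, adjusted p 0.0646), without control mouse 5 (-6.75, adjusted p 0.0993), without control mouse 3 (-8.27, adjusted p 0.0501) and without any 1 of the Jag antibody mice (adjusted p 0.0646 to 0.0828). The median over the 70 members was -0.36, against -0.21 over the short genes. It was 0.27 without control mouse 5 and 0.08 with the length and GC adjustment.

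Rpl3l reached high counts in single mice of other groups too. Its count was 1031 in control mouse 5 at 15 h against 4 to 106 in the other 4 mice, 2418 in control mouse 5 at 7 d, 4995 in Jag antibody mouse 6 at 7 d, and 1345 in control mouse 3 with hormone. Rpl3 itself stayed at 2 to 17 counts in all 40 libraries. Of its coding windows 4.31% are unique, against 100% for Rpl3l, so these few counts say little about the Rpl3 mRNA level.

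**Figure D5:**
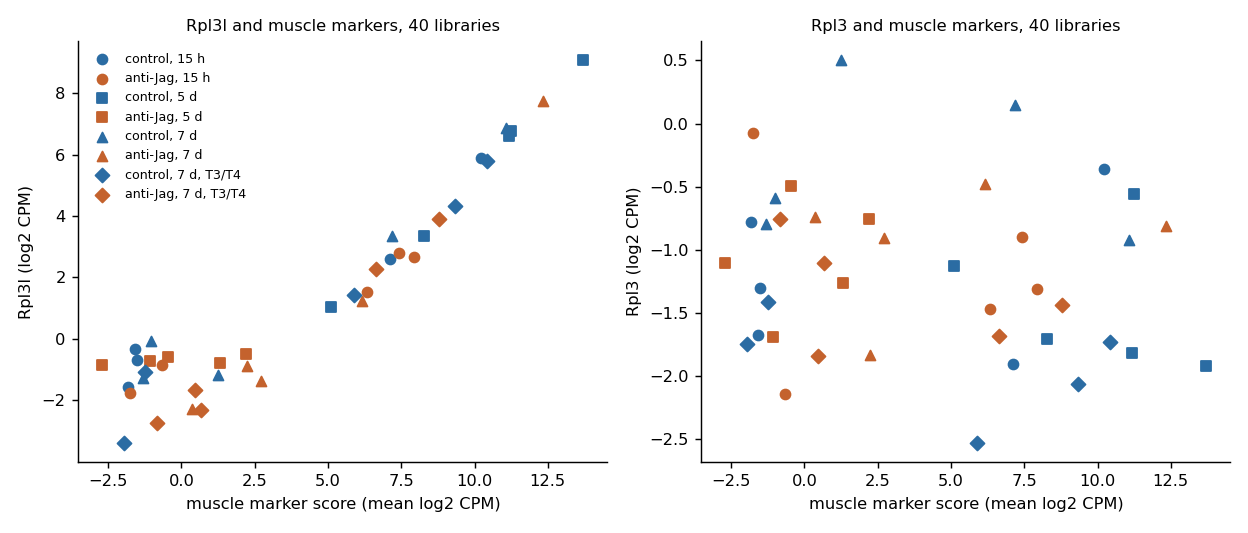
Log2 CPM of Rpl3l (left) and Rpl3 (right) against the mean log2 CPM of 8 muscle markers in 40 libraries; shape marks time and hormone, colour the antibody. Rpl3l climbs with the muscle score once that score passes about 5, and the 5 control mice at 5 d all lie in that range. Rpl3 shows no such rise, at only 2 to 17 counts per library.

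From 15 h to 5 d in control mice, 15 of 70 members were called higher and 3 lower, where 36.4% of all genes were called, 16.2% higher and 20.1% lower. The median was 0.80, and 41.2% of the other short genes were called higher with a median of 0.74. Among the called members the largest rises were Rpl29 (2.49, SE 0.75, edgeR adjusted p 0.011), a heparin-binding surface protein of the large subunit, Rps21 (2.06, adjusted p 0.011) and Rplp1 (1.95, adjusted p 0.028). Rpl3l had a larger log2 fold change, 3.50, but with an SE of 1.88 it did not pass (adjusted p 0.14), and with the muscle covariate it was -0.50 (adjusted p 0.59). Rps21 had 24.0, 21.5, 18.6, 15.8 and 20.3 CPM at 15 h and 9.44, 93.5, 44.1, 18.7 and 252 at 5 d, so mice at 5 d lay on both sides of the earlier group. Without mouse 5 at 5 d, 3 members were called and the median was 0.13, and with the muscle covariate 4 were called. With the length and GC adjustment, 2 were called higher and 10 lower, and the median was 0.03, so the upward direction did not hold there. Of the 949 other short genes, 10.9% were called higher and 15.0% lower after the same adjustment.

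The 3 called lower over this time were Rpl9, Rps13 and Rpl15, and members that were not called also went down. Rpl12, for example, had 0.325, 2.17, 1.58, 0.855 and 0.625 CPM at 15 h. At 5 d it had 0.150, 0.497, 0.584, 0.427 and 0.839, with overlap. Rpl9, a large subunit protein, had 14.4, 15.6, 16.0, 16.9 and 15.2 CPM at 15 h and 10.1, 7.05, 5.19, 6.41 and 11.7 at 5 d. All 5 mice at 5 d were below all 5 at 15 h, with a log2 fold change of -0.95 (SE 0.19, edgeR adjusted p 0.00041). Rps13 (-0.72, adjusted p 0.028) and Rpl15 (-0.55, adjusted p 0.035) overlapped between the groups. None of the 3 has a unique coding window. Markers and other lists moved here as well, where 16.2% of all genes were called higher and 20.1% lower. Of the markers, 8 of 10 myeloid genes were called lower and 5 of 5 erythroid genes higher. None of the 8 muscle markers was called, though all 8 were positive (median 4.25), and the muscle score was -1.82 to 10.2 at 15 h and 5.10 to 13.7 at 5 d. The part of the myeloid and erythroid cells was not tested. Of 14 other TOP mRNAs 4 were higher and 3 lower (Tpt1 2.46, Hnrnpa1 -1.52), of 24 biogenesis genes 3 higher and 7 lower (Nop58 -1.17 and Ncl, nucleolin, -1.10), and of 15 control genes 4 each way (Myc -1.71).

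The same interval in Jag antibody mice had 2 members called higher and 1 lower of 70, where 14.5% of all genes were called, 8.22% higher and 6.24% lower. The median was 0.69, against 0.45 over the short genes, and 0.29 with the length and GC adjustment. Rplp2 rose by a log2 fold change of 1.96 (SE 0.65, edgeR adjusted p 0.040), Rps3a1 by 1.50 (adjusted p 0.038), and Rpl15 fell by 0.89 (adjusted p 0.0056). Rpl15 was thus called lower under both antibodies, in comparisons that share no mice but come from 1 fit. In control mice its call was lost with RLE in place of TMM, without the low-count filter and with only the groups compared. It was kept there with library totals, the muscle covariate, the length and GC adjustment, the replicate block and DESeq2. In Jag antibody mice it was kept under all of these. Calls here ranged from 1 to 11 on leaving out single mice, with 11 without Jag antibody mouse 8 at 5 d. From 5 d to 7 d, 1 member was called lower in control mice, Rpl10 at -1.44 (adjusted p 0.024), where 9.13% of all genes were called, 4.71% higher and 4.42% lower, and it was -0.97 (adjusted p 0.081) without mouse 5 at 5 d. In Jag antibody mice 0 were called from 5 d to 7 d (all genes 3.29%, 2.01% higher and 1.28% lower; 1 by DESeq2; 2 at an unadjusted p under 0.05). The members' medians from 5 d to 7 d were -0.15 in control and -0.42 in Jag antibody mice, against 0.27 and -0.04 over the short genes.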

How the data were processed

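Total RNA from brown adipose tissue of 40 mice was measured. The authors deposited raw read counts per Ensembl gene for 52636 genes, and the submitters' processing notes name GSNAP and limma. The counting program, its treatment of strand and of reads with several matches, and the genome build are not given in the sources used here. A companion FPKM table was not used. Totals ran from 12217623 to 36511893 counts, and no 2 libraries of a group agreed within sampling noise (80 pairs).

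After filtering with filterByExpr and TMM scaling, 1 quasi-likelihood model of all 40 libraries was fitted in edgeR 4.0.16 (R 4.3.3), with 32 residual degrees of freedom and Benjamini-Hochberg adjustment over 17079 genes at 0.05. The 11 comparisons share groups, and so share mice. CPM is scaled by TMM, and log2 CPM has a prior count of 2. Spliced lengths, GC content and 50-base windows came from GENCODE M21 on GRCm38, using the shortest principal transcript (for Rps20 this is 3706 bases long). Length and GC trends were natural splines with 4 degrees of freedom each per library, over 11095 genes that are not members, and entered as offsets. The scripts were tested on simulated data. Alternatives were RLE factors, library totals, no filter, only the groups compared, DESeq2 1.42.0, a muscle covariate, the offsets, a replicate block and leaving out each mouse.

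Named members are up to 3 called genes per direction and comparison, the 3 highest and 3 lowest per kb, and paralogs, stalk proteins and commonly used members; the others named are well-counted examples or members singled out after their values were seen. Some members that this rule gives are not reported here. Of other lists, up to 2 called genes were named. Members and lists were chosen with earlier results of these data known.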

Additional observations from a re-analysis of the deposited data

Results flagged for a closer look

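Dixon's test for 1 distant value in a group of 5 was applied to 12 measures in 8 groups, 96 cases in all, of which chance gives about 1 in 20. It singled out 2 mice. Rpl39l, the paralog of Rpl39 known from the testis, was at 2.37 log2 CPM in Jag antibody mouse 7 at 7 d, against 0.98 to 1.37 in the other 4. The slope of log2 CPM on log2 length in Jag antibody mouse 6 at 15 h was 0.0758, against 0.117 to 0.128 in the others.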

How the results depend on the processing

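The number of called ribosomal protein genes was recomputed for each comparison. For hormone in control mice (46), it was 16 with library totals in place of TMM, 13 with length and GC offsets, 41 with a replicate block, 12 with the replicate block and offsets together, 45 to 49 with RLE, only the groups compared, the muscle covariate and DESeq2, and 39 without the filter. Leaving out 1 mouse gave 18 to 48. For hormone in Jag antibody mice (0), fitting only the groups compared gave 12. For 5 d against 15 h in control mice (18), it was 11 with library totals, 4 with the muscle covariate, 12 with offsets, 8 with a replicate block, 11 with block and offsets, 0 with only the groups compared, and 3 to 32 on leaving out 1 mouse. For 7 d against 5 d in control mice (1), it was 3, 8, 2, 6, 0 and 2 with library totals, offsets, the replicate block, block and offsets, only the groups compared and DESeq2, and 1 to 4 without 1 mouse. For 5 d against 15 h in Jag antibody mice (3), it was 1 without the filter, 5 with offsets, 1 with a replicate block, 8 with only the groups compared and 6 with DESeq2, and 1 to 11 without 1 mouse. For 7 d against 5 d in Jag antibody mice (0), DESeq2 gave 1. For the antibody at 5 d (1), it was 0 without the filter and 0 with the muscle covariate, and 0 to 3 without 1 mouse. Rpl3l was then at 0.61 with the muscle covariate, against -8.14. The causes were not tested. The other comparisons stayed at 0 under every alternative run. Same-numbered mice are different animals whose deviations correlated at a mean r of 0.0819 to 0.195 over 6 pairs of groups, and not every pair passed 0.1, so the numbers were not taken as pairing; antibody comparisons share no number. Depth limits members such as Rps6, with 0 to 9 counts.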
